A study of Mus musculus with 10 samples.

Results

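Magnocellular oxytocin neurons are large neurosecretory cells of the paraventricular hypothalamus (PVH) that send axons to the posterior pituitary and release oxytocin into the blood. The hormone is cut from a precursor that also carries a neurophysin, its carrier in the granule, and the vasopressin precursor encoded next to it on the chromosome is built the same way. Parvocellular oxytocin neurons are smaller and project within the brain. Cluster 1 of the study's clustering of single PVH cells held 221 of the 706 cells kept after quality control and 221 of the 664 cells in the 12 PVH clusters, and its members were taken by that cluster number from the table of cells.

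All cells came from male mice over 7 weeks of age, offspring of *Agrp-IRES-Cre* and *Ai9* parents, which carry a tdTomato reporter switched on by Cre in cells that have expressed *Agrp*. No treatment was compared. Slices were held with blockers of neuronal activity (TTX, APV and DNQX) and pronase for 50 minutes, and cells were picked by hand into 10 plates of 96 wells, 4 named Q, 2 AL and 4 JM, which the authors' table lists as batches. The labels call the cells labelled neurons of the cross, whereas the methods use AGRP axons to find the border of the PVH, and *Agrp* had a UMI in 2 of the 221 cells. The sources used here do not say which animals are on which plate, so the plate was the replicate and the spread given is the spread between plates. Cluster 1 supplied between 7 (JM8) and 42 (Q5) cells a plate, or 10.6% to 59.4% of the PVH cells of a plate. A total of 105 of the cells share their plate number and well position with a cluster 1 cell of another batch. Whether they also share a well barcode was not checked against a list.

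Depth per cell was counted in unique molecular identifiers (UMIs). The cluster 1 cells held 53125 to 1078101 gene UMIs. Their median cell had 183836 UMIs from 5900 genes, and that of the 443 cells in the other PVH clusters 118201 UMIs from 4883 genes. Depth differed between batches, with a median of 366781 UMIs in the cluster 1 cells of the Q plates and 100902 in those of the AL and JM plates. Levels below are CPM, the UMIs of a gene scaled to a fixed total of gene UMIs, computed on UMIs summed over the cells of a plate, given as mean ± SD over plates, and differences are log2 fold changes with their standard error (SE) from edgeR. Because the clusters were made from these same genes and cells, differences in genes or gene UMIs between clusters are a description, without p-values. A gene is called higher or lower where the log2 fold change was at least 1 in size and the CPM differed in the same direction in every plate. By this rule 134 of 11867 genes (1.13%) were higher in cluster 1 than in the other PVH cells and 330 (2.78%) were lower. These shares are the background for the counts of list members below. Calls are against the pool of the other PVH cells, and a single cluster can be level with cluster 1 or beyond it. The median log2 fold change of all genes was -0.08.

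*Oxt* lies at chr2:130576173-130577054 on the plus strand (GRCm38, GENCODE M21), and *Avp*, the vasopressin gene, at chr2:130580620-130582554 on the minus strand, so that their 3′ ends face each other across 3565 bases. The sequence before the start of *Oxt* is shown because it is the promoter of the gene that defines these cells. In the RefSeq window of 250 bases before the start (chr2:130575919-130576168, plus strand, GRCm38.p6), capitals mark 2 copies of TGACC with 1 base between them, which begin 166 bases before the start. Such repeats are bound by nuclear receptors, and this element of oxytocin promoters is known as a hormone response element.
*Oxt* promoter: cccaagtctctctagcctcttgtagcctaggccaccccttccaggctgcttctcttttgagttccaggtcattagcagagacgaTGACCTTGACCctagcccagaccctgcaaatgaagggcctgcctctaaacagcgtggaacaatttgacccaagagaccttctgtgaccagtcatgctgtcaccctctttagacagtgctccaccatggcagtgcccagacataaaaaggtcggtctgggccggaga
The paired motif was found on either strand in 22 of 32851 such windows (0.067%). Of the 15 genes with the largest calls higher in cluster 1, 10 had a window in the table, and *Oxt* was the only member of the 10 with the motif. These are matches of letters and say nothing of what is bound.

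The stretch that *Oxt* and *Avp* share is shown because the main contrast among these cells is between those 2 transcripts. Along 206 bases of the Oxt-201 and Avp-201 transcripts 197 bases (95.6%) were identical, 127 of them in a single run, and capitals mark the 9 positions that differ.
*Oxt* transcript, bases 150 to 355: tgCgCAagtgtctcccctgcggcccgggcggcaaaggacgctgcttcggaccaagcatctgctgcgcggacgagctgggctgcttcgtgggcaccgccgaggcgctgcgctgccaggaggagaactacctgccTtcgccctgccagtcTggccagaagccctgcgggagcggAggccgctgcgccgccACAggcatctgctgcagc
*Avp* transcript, bases 138 to 343: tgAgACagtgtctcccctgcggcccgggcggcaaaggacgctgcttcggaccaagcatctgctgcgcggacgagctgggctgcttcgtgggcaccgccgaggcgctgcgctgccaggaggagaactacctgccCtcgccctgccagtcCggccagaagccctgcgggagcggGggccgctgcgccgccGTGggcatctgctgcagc
The stretch lies almost wholly in exon 2 of each gene, which encodes much of the neurophysin, and ends 182 bases from the 3′ end of the *Oxt* transcript and 234 bases from that of *Avp*. How reads that fall within it were assigned is not given in the sources used here, so low counts of either gene in cells rich in the other are uncertain.

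*Oxt* ran from 36375 CPM (JM5) to 87299 CPM (Q5) over the plates of cluster 1, with a median of 67338. In the other PVH cells it ran from 280 to 6615 CPM, with a median of 1298, so the sides did not overlap. The means were 66959 ± 17304 and 2307 ± 2103 CPM (n = 10 plates), a log2 fold change of 5.57 (SE 0.72). At least 1 *Oxt* UMI was also present in 435 of the 443 other PVH cells, and the 254 wells outside the table of cells had a median of 3 *Oxt* UMIs. Presence of *Oxt* thus did not separate the clusters, whereas the level of this marker did in the sums per plate. Single cells overlapped, with 1240 CPM in the lowest cluster 1 cell and at least 10000 CPM in 22 of the 443 others. Within cluster 1 the median cell had 77928 CPM, and *Oxt* had more UMIs than any other gene in 209 of the 221 cells (94.6%).

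Cells at the edges of the group are visible when *Oxt* and *Avp* are plotted cell by cell. *Avp* had a median of 164.5 CPM in cluster 1 cells, but 5 cells had over 10000 CPM. In 4 of these *Avp* exceeded *Oxt*, with *Avp* between 54589 and 129175 CPM and *Oxt* between 1280 and 7158 CPM. They lay on the Q plates, 1 on Q5, 1 on Q6 and 2 on Q8, and 3 of the 4 had between 33 and 44 *Oprk1* UMIs. Another 3 cells, 2 on JM6 and 1 on Q7, had under 10000 CPM of *Oxt* (1240, 2350 and 3532 CPM), little *Avp* (23.4 to 73.58 CPM) and no UMI of *Oprk1* or *Fzd7*. Conversely, 22 of the 443 other PVH cells had at least 10000 CPM of *Oxt*, and 18 of those were among the 35 cells of cluster 12.

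**Figure D1:**
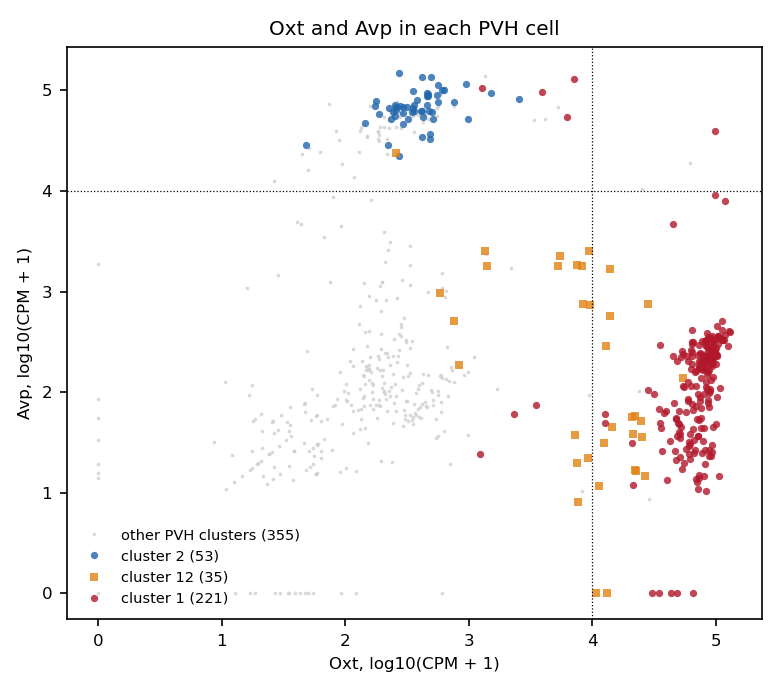
Each point is a PVH cell, with *Oxt* on the x axis and *Avp* on the y axis, both as log10(CPM + 1), in cluster 1 (221 cells), cluster 2 (53), cluster 12 (35) and the remaining PVH clusters (355); dotted lines mark 10000 CPM. Most cluster 1 cells sit at high *Oxt* and low *Avp*, 4 have more *Avp* than *Oxt*, 3 of them with more *Oxt* than any cluster 2 cell (at most 2545 CPM), and cluster 12 lies on both sides of the *Oxt* line.

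Of the other markers given for these cells, *Oprk1*, which encodes the kappa opioid receptor, was broadly present and *Fzd7*, a Frizzled receptor for Wnt ligands, was sparse. *Oprk1* (chr1:5588466-5606131, plus strand) ranged from 95.31 to 301.7 CPM over the plates of cluster 1, with a median of 158.4, and from 6.935 to 68.02 CPM in the other PVH cells, with a median of 16.99. The lowest plate of cluster 1 was above the highest of the other cells, and the log2 fold change was 3.11 (SE 0.32). A UMI of *Oprk1* was found in 196 of 221 cells (88.7%, exact 95% interval 83.8 to 92.5) and in 89 of 443 others (20.1%, 16.5 to 24.1), or in 81% and 17.4% when each cell was thinned to 50000 UMIs. Cluster 12 was next in level, with a mean of 102.9 CPM.

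*Fzd7* (chr1:59482424-59486955, plus strand) was seen in cluster 1 and in no other PVH cell. It had 183 UMIs in 33 of the 221 cells (14.9%, 10.5 to 20.3) and a mean of 4.44 ± 2.23 CPM, with 2.07 CPM on the lowest plate and 7.66 on the highest. None of the 443 other PVH cells had a UMI of *Fzd7*, and 3 counts of 443 would be 0.677% of cells with a UMI. That limit is on cells with a UMI, not on cells that express the gene. Against a floor of 3 counts over that whole group, the level in cluster 1 was at least 74.2-fold higher. All intervals and floors cover counting error alone. As a mark of single cells *Fzd7* was thus absent from most of cluster 1 at this depth, and at a thinned depth it was found in 9.95% of the cells.

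Among called genes with a mean of at least 20 CPM in cluster 1, those furthest above the rest of the PVH were *Trac*, *Oxt*, *Cela1* and *Clic4*. *Trac*, annotated as the constant segment of the T cell receptor alpha chain (chr14:54220521-54224206, plus strand), ranged from 25.27 to 66.68 CPM in cluster 1, with a median of 46.23, and from 0 to 4.131 CPM in the other cells. Its log2 fold change was 5.64 (SE 0.61), and it had a UMI in 139 of 221 cells (62.9%) against 17 of 443 (3.84%). *Cela1*, which encodes an elastase (chr15:100674421-100687921, minus strand), ranged from 43.7 to 138.8 CPM against 0 to 9.694 CPM, with a log2 fold change of 5.36 (SE 0.45), and had a UMI in 58.4% against 4.06% of cells. *Clic4*, an intracellular chloride channel protein (chr4:135213969-135272814, minus strand), ranged from 2.867 CPM on plate Q5 to 46.69 CPM on JM7, against 0 to 6.738 CPM in the other cells, so its sides overlapped across plates although they did not within any plate. Its log2 fold change was 5.06 (SE 0.60), and it had a UMI in 40.3% against 4.29% of cells.

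*Trac*, *Cela1* and *Clic4* were the only genes with a UMI in over 40% of cluster 1 cells and in under 5% of the other PVH cells pooled. The study set such limits between single clusters, not against the pooled cells. At 50000 UMIs per cell the shares were 57.5% against 2.48% for *Trac*, 52% against 2.71% for *Cela1* and 30.3% against 2.48% for *Clic4*, so the last was below 40% once total UMIs per cell were equal. On the 5 plates shared with cluster 4, *Clic4* was at 26 ± 10.2 CPM in cluster 1 and 15.3 ± 33 CPM in cluster 4, and higher in cluster 1 on 4 of the 5, while *Cela1* was at 74.4 ± 23.8 and 7.29 ± 10.1 CPM, and higher on 5 of 5.

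The other genes among the 15 largest higher calls had log2 fold changes from 2.92 to 4.92. They were *Fam114a1* (4.92, SE 0.95), *Gsg1l*, an auxiliary subunit of AMPA receptors (3.91, SE 0.55), *Rom1*, a tetraspanin known from photoreceptors (3.61, SE 0.42), *Rspo4*, a secreted amplifier of Wnt signalling (3.53, SE 0.64), *Snx31* (3.51, SE 0.70), *Fam122b* (3.33, SE 0.60), *Prph*, the intermediate filament peripherin (3.25, SE 0.72), *Rxfp3*, the relaxin-3 receptor (3.22, SE 0.31), *Casp1*, an inflammatory caspase (3.08, SE 0.53), and *Fam19a1*, a secreted protein of the TAFA family (2.92, SE 0.36). *Fam114a1* was at 5.53 without Q7. *Rxfp3* (chr15:11033717-11037991, minus strand) ranged from 52.78 to 218.2 CPM in cluster 1 and from 1.572 to 62.24 CPM elsewhere, and had a UMI in 187 of 221 cells (84.6%) against 64 of 443 (14.4%). On the 5 plates that hold at least 3 cells of cluster 4, it was at 179.6 ± 30.4 CPM in cluster 1 and 104.2 ± 76.4 CPM in cluster 4, and higher in cluster 1 on 4 of the 5. *Prph* ranged from 100.8 to 316.6 CPM against 0.2108 to 76.7 CPM.

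**Figure D2:**
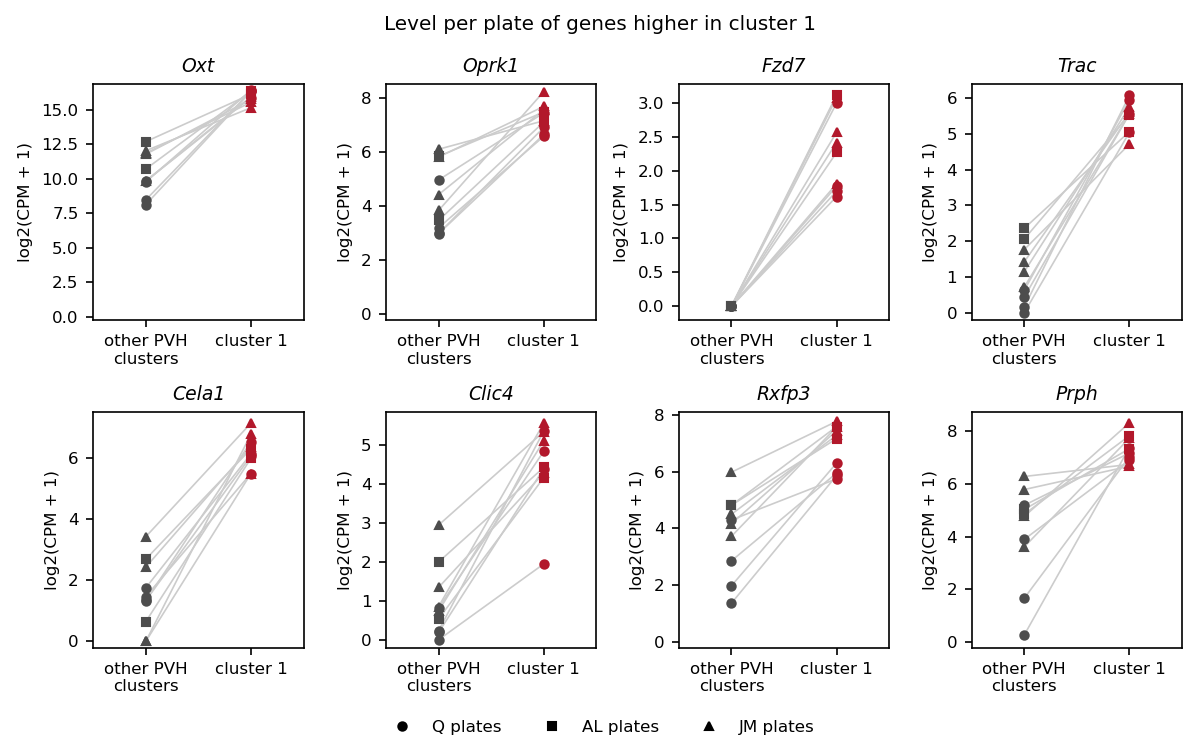
Level of 8 genes as log2(CPM + 1) on the y axis, with a point per plate for the other PVH clusters (grey) and for cluster 1 (red), joined within a plate; the marker shape gives the batch. Every line goes up to cluster 1, *Fzd7* is at 0 in the other cells of all 10 plates, and *Clic4* in cluster 1 is lowest on plate Q5.

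The genes furthest below the rest of the PVH were close to absent from cluster 1. *Galnt9*, a glycosyltransferase, had 1 UMI in 1 of the 221 cells and 2271 UMIs in 130 of the 443 others. *Bcl11a*, a transcription factor, had 2 UMIs against 2558, and *Asb4* 3 against 2135. The synaptic organisers *Cbln2* and *Cbln1* had 4 against 3389 and 8 against 3231 UMIs. *Bdnf*, a neurotrophin, had 49 UMIs in 22 cells against 18137 in 127. *Reln*, a secreted matrix protein, had 28 UMIs in 8 cells against 4133 in 130, and *Trhde*, which degrades thyrotropin-releasing hormone, had 4 against 1482. Of the remainder of the 15 largest lower calls, *Tnnt2* had 3 against 1513 UMIs, *Sfrp2* 9 against 2069, *Clmp* 11 against 1845, *Caln1* 7 against 1282 and *Glra3* 66 in 4 cells against 1659 in 72. *Tac1* and *Penk* completed them. In the other PVH cells, too, each of the genes with counts given here had a UMI in a minority of cells, at most 145 of 443 (*Bcl11a*).

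Among 50 neuropeptide precursors, 18 passed the filter on low counts, of which *Oxt* was called higher and 8 (44.4%, beside 2.78% of all genes) were called lower, with a list median of -1.93. The lower ones were *Avp* (log2 fold change -5.37, SE 0.99), *Crh*, the releasing hormone for corticotropin (-6.43, SE 0.85), *Penk* (-7.14, SE 0.66), *Tac1* (-7.63, SE 0.72), *Cartpt* (-5.52, SE 0.60), *Ghrh* (-1.72, SE 0.66), *Pdyn*, the dynorphin precursor (-1.03, SE 0.18), and *Scg2*. Single plates set some of these values: *Tac1* was at -9.12 without Q5, where it had 18.67 CPM in cluster 1 beside at most 1.249 CPM on any other plate, and *Crh* and *Penk* were at -7.14 and -7.92 without JM5. *Trh* and *Sst* had log2 fold changes of -6.86 (SE 1.38) and -6.14 (SE 0.65) but were not lower on every plate. *Gal*, galanin, stayed near the level of the other cells at 490.7 ± 216.9 against 392.8 ± 184.4 CPM (0.45, SE 0.13). *Pdyn* was still present in cluster 1, at 54.21 to 242.1 CPM, and its size fell short of 1 when any of 5 plates (AL5, AL6, JM5, JM6 or JM8) was left out, with values from -0.96 to -0.93.

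Genes that process and store peptides were called in both directions. Of 20 tested, 3 (15%, beside 1.13% of all genes) were higher and 3 (15%, beside 2.78%) lower, and the list median was 0.13. *Pam*, which amidates oxytocin and many other peptides, was at 797.9 ± 199.7 against 326 ± 80.5 CPM (1.40, SE 0.10), *Pcsk1*, a prohormone convertase, at 223.7 ± 29.4 against 112.7 ± 27.5 CPM (1.13, SE 0.13), and *Cadps2*, which primes dense-core granules, at 168.3 ± 48.9 against 83.51 ± 49.2 CPM (1.31, SE 0.20). By cluster means, *Pam* was highest in cluster 1. *Cadps2* was higher in cluster 12 (329.2 CPM), and *Pcsk1* was as high in clusters 2, 3, 4 and 13 (223.8 to 254.1 CPM). The other convertase, *Pcsk2*, was at 44.09 ± 12.03 against 178.3 ± 57.2 CPM (-1.86, SE 0.13), and the granin *Chga* at 68.54 ± 26.0 against 190.4 ± 73.0 CPM (-1.33, SE 0.13). Low *Pcsk2* was shared with clusters 7 and 8 (means of 29.81 and 42.65 CPM), and the remaining clusters had at least 88.85 CPM. *Scg2*, secretogranin II, ranged from 17.09 to 381.8 CPM in cluster 1, with a median of 64.75, and from 1752 to 6147 CPM in the other cells, with a median of 3600 (-5.34, SE 0.52). It had a UMI in 64.3% of cluster 1 cells, and in 98.9% of the others despite their lower depth. Cluster 1 had the lowest mean of *Scg2* among the 12 clusters, and the 3 *Avp*-rich clusters 2, 3 and 4 came next, at 324.6 to 600.4 CPM against at least 2140 CPM in the rest. The granin *Chgb* (-0.13, SE 0.09), *Scg3* (0.11, SE 0.07), *Cpe* (0.23, SE 0.07) and *Pcsk1n* (0.29, SE 0.06) were not called.

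Of 35 genes for folding and export from the endoplasmic reticulum, none was called in either direction. The list median was 0.42, and that over all genes -0.08. The chaperone *Hspa5* was at 774.3 ± 163.8 against 744.1 ± 130.9 CPM (0.16, SE 0.08), *Xbp1*, a transcription factor of the unfolded protein response, had a log2 fold change of 0.42 (SE 0.09), and *Caprin2*, an RNA-binding protein known to bind vasopressin mRNA, of 0.67 (SE 0.15). *Sim1* was at 73.55 ± 19.2 against 75.93 ± 20.8 CPM (0.08, SE 0.15), and *Otp* (-0.11, SE 0.08) and *Pou3f2* (0.43, SE 0.11) were not called. Of 26 lineage factors tested, *Foxp1* was higher (1.69, SE 0.18), at 58.28 to 151.5 against 19.59 to 61.23 CPM, and 5 were lower, *Bcl11a*, *Ebf3* (-6.04, SE 0.79), *Zfhx4* (-5.35, SE 0.78), *Pou3f4* (-3.36, SE 0.75) and the neuronal splicing factor *Rbfox3* (-1.48, SE 0.21). *Ebf3* was at -6.85 without Q6 and -6.93 without Q8. The counts were 1 of 26 (3.85%) higher and 5 of 26 (19.2%) lower, beside 1.13% and 2.78% of all genes.

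**Figure D3:**
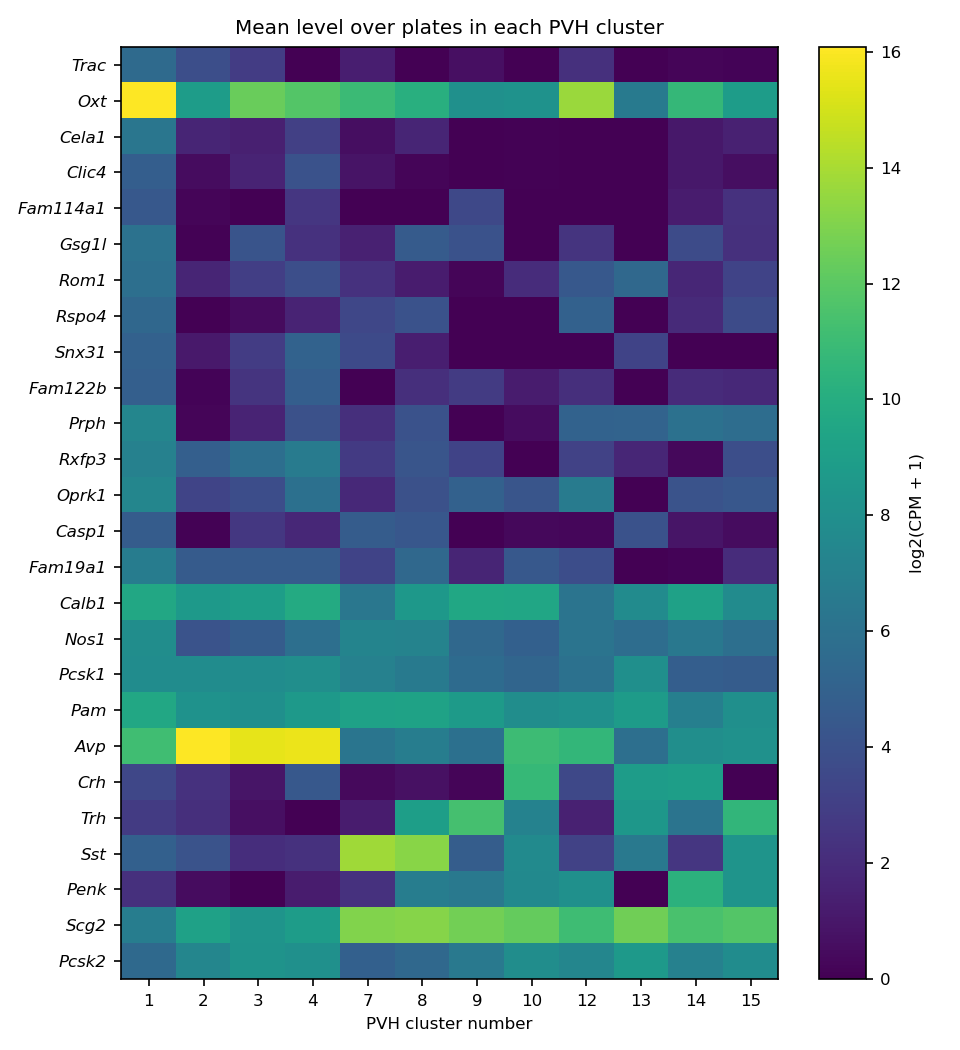
Mean level as log2(CPM + 1), shown by colour, of the 15 genes with the largest higher calls, 4 further higher genes and 7 lower or patchy peptide and processing genes (rows) in the 12 PVH clusters (columns), over plates with at least 3 cells of a cluster. *Trac* and *Cela1* are highest in the first column, *Clic4* and *Rxfp3* have their next highest means in cluster 4, over 5 of the plates, and *Scg2* is lowest in cluster 1.

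Of 6 transmitter genes tested, 1 (16.7%, beside 1.13% of all genes) was higher and 2 (33.3%, beside 2.78%) were lower. *Nos1* was higher, and *Gad2* and *Ddc*, an enzyme of monoamine synthesis (-5.96, SE 0.84, or -6.75 without AL6), were lower. *Slc17a6*, the vesicular glutamate transporter of the hypothalamus, was at 131.1 ± 39.2 against 177.7 ± 87.2 CPM (-0.21, SE 0.21) and had a UMI in 89.1% of cluster 1 cells. The GABA synthesis gene *Gad1* had no UMI in the 221 cells, where 3 counts would be 1.36% of cells with a UMI, and *Gad2* had a log2 fold change of -4.32 (SE 0.66). *Nos1*, neuronal nitric oxide synthase (chr5:117781032-117958840, plus strand), ranged from 151.1 to 313.5 CPM in cluster 1, with a median of 221.8, and from 52.06 to 101.9 CPM in the other cells, without overlap (1.86, SE 0.12). It had a UMI in 99.1% of cluster 1 cells and 48.1% of the others. *Th*, tyrosine hydroxylase, was at 209.1 ± 93.1 against 100 ± 39.8 CPM (1.15, SE 0.20) but higher on 9 of 10 plates, so it was not called.

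Of 36 glutamate and GABA receptor genes tested, 3 (8.33%, beside 1.13% of all genes) were higher and 8 (22.2%, beside 2.78%) lower. The list median was -0.44. The higher ones included the NMDA receptor subunit *Grin2a*, at 48.23 to 144.3 against 7.511 to 32.04 CPM (2.14, SE 0.18), and the GABA-A receptor subunit *Gabra5* (1.01, SE 0.34), which fell short of 1 without Q6, Q7, AL5 or JM7 (0.86 to 0.95). *Gabra5* had higher means in clusters 12 (41 CPM) and 4 (32.6 CPM) than in cluster 1 (21.2 CPM, or 28.2 on the AL and JM plates). The lower ones were the kainate receptor subunits *Grik1* (-3.56, SE 0.48) and *Grik2* (-1.97, SE 0.62), *Grin3a* (-1.34, SE 0.22), *Grm7* (-1.51, SE 0.26), *Gabra4* (-2.17, SE 0.51), *Gabbr2* (-2.24, SE 0.38) and the glycine receptor subunits *Glra1* (-2.48, SE 0.67) and *Glra3*.

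Of 21 receptors for peptides and metabolic signals tested, *Rxfp3* (4.76%, beside 1.13% of all genes) was higher and 5 (23.8%, beside 2.78%) were lower. The list median was -1.54. The lower ones were *Calcr*, the calcitonin receptor (-6.87, SE 1.08), *Npy1r*, a neuropeptide Y receptor (-6.67, SE 0.90), *Hcrtr1*, an orexin receptor (-5.44, SE 0.80), *Galr1*, a galanin receptor (-5.27, SE 0.82), and *Mchr1*, the receptor of melanin-concentrating hormone (-4.55, SE 0.66). Leaving out a plate gave up to -8.15 for *Calcr* (AL6, and -7.49 for JM7), -7.52 for *Npy1r* (JM7), -6.19 for *Hcrtr1* (JM5, and -6.04 for AL5) and -5.97 for *Galr1* (JM7, and -5.93 for Q6). The low levels of *Calcr*, *Hcrtr1* and *Npy1r* were shared with several clusters, among them the *Avp*-rich clusters 2, 3 and 4. Cluster means in clusters 2, 3 and 4 were at most 0.375 CPM for *Calcr*, 1.24 for *Hcrtr1* and 4.11 for *Npy1r*, against 0.577, 1.84 and 0.658 in cluster 1. *Npy1r* was also low in clusters 9, 10, 12 and 14 (0 to 1.32 CPM), and *Calcr* and *Hcrtr1* in cluster 8 (0.743 and 0.681 CPM). The highest means were 80.6 CPM for *Calcr* (cluster 9), and 107.4 for *Hcrtr1* and 140.5 for *Npy1r* (both cluster 7). *Galr1* (21.9 to 46.3 CPM) and *Mchr1* (5.12 to 26.3 CPM) were higher in clusters 2, 3 and 4 than in cluster 1 (2.4 and 1.2 CPM). *Lepr*, the leptin receptor, and *Ghsr*, the ghrelin receptor, had no UMI in cluster 1, and *Mc4r*, the melanocortin receptor of feeding circuits, was at 0.644 against 10.13 CPM without being lower on every plate. The oxytocin receptor gene *Oxtr* had no UMI in 221 cells and 46 UMIs in 7 of the 443 others. The vasopressin receptor gene *Avpr1a*, 1 of 2 genes tested of the list of oxytocin and vasopressin receptors, was higher, at 7.372 to 32.7 against 0.9796 to 18.15 CPM (1.93, SE 0.43), with a UMI in 49.3% against 10.4% of cells. Of 16 nuclear hormone receptors and related genes tested, 1 (6.25%, beside 2.78% of all genes) was lower and none was higher. The lower one was the estrogen receptor gene *Esr1* (-5.27, SE 0.96, or -5.87 without Q7). The other estrogen receptor gene, *Esr2*, was at 6.18 ± 6.90 against 7.41 ± 6.72 CPM (-0.25, SE 0.85). Of 12 monoamine, acetylcholine and purine receptors tested, 1 (8.33%, beside 2.78% of all genes), *Adra2c*, was lower (-3.38, SE 1.17) and none was higher.

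Among 43 potassium channel genes tested none was higher and 3 (6.98%, beside 2.78% of all genes) were lower. These were *Kcna2* (-3.13, SE 0.55), *Kcnj11* (-1.61, SE 0.61) and *Kcnk2* (-1.01, SE 0.25). *Kcnk2* sat at the limit and lost its call under 9 of 17 alternatives, among them leaving out Q5, Q8, JM6 or JM8. *Kcnma1*, the pore of the large-conductance calcium-activated potassium channel, was at 80.2 ± 29.6 against 47.99 ± 16.1 CPM (0.80, SE 0.16). Of 46 sodium, calcium, HCN and TRP channel genes tested, 1 (2.17%, beside 1.13% of all genes) was higher and 6 (13%, beside 2.78%) were lower. The higher one was *Trpm4*, a calcium-activated cation channel, at 18.11 to 60.94 against 2.253 to 13.99 CPM (1.89, SE 0.31). The lower ones included the sodium channel subunit *Scn3b* (-1.46, SE 0.08), *Cacnb2* (-2.35, SE 0.57), *Asic2* (-1.27, SE 0.21) and *Trpm2* (-1.04, SE 0.38). *Scn3b* was still abundant in cluster 1, at 163.8 to 288.6 against 475.4 to 769 CPM. *Trpm2* fell short without JM5, JM6 or JM7 (-0.92 to -0.84).

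Of 41 calcium-binding and release genes tested, 5 (12.2%, beside 1.13% of all genes) were higher and 3 (7.32%, beside 2.78%) lower. *S100a10* was at 217.3 to 503.4 against 14.76 to 242.1 CPM (2.19, SE 0.45), the calmodulin regulator *Pcp4* at 297 to 2211 against 147.4 to 630.1 CPM (1.68, SE 0.16), the calcium sensor *Syt7* at 80.26 to 134.5 against 18.52 to 68.79 CPM (1.47, SE 0.17), *Cplx2*, a regulator of vesicle fusion, at 107 to 214.2 against 43.56 to 135.5 CPM (1.31, SE 0.16), and *Calb1*, calbindin, at 481.8 to 1302 against 229.5 to 801 CPM (1.06, SE 0.13). *Calb1* was at 0.95 without AL6. Cluster 4 had a mean of 924.3 CPM of *Calb1*, beside 795.4 CPM in cluster 1, or 939.8 on the AL and JM plates. *Sv2c* (-4.31, SE 0.76), *Syt6* (-4.02, SE 0.87) and *Rab3b* (-1.63, SE 0.21) were lower. Of 17 immediate early genes tested, 1 (5.88%, beside 1.13% of all genes) was higher and 1 (5.88%, beside 2.78%) lower. *Fosl2* was higher (1.88, SE 0.15), at 79.51 to 397.9 against 21.18 to 109.3 CPM, and *Bdnf* was lower. *Fos* itself was at 275.5 ± 207.7 against 357.9 ± 275.9 CPM (-0.30, SE 0.31).

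Of 5 opioid genes tested, *Oprk1* was higher, which restates that it is a marker given for these cells. The precursors *Pdyn* and *Penk* (40%, beside 2.78% of all genes) were lower. Of 17 Wnt and Frizzled genes tested, 2 (11.8%, beside 2.78% of all genes) were lower, *Sfrp2* (-7.42, SE 0.63), a secreted inhibitor, and *Wnt4* (-5.60, SE 0.95). Only *Fzd7* was higher. It is a marker given for these cells and passed the filter through cluster 1 alone, so its call adds nothing on this list. *Sfrp2* was at -8.30 without AL5 and *Wnt4* at -6.36 without AL6. None of 5 astrocyte and 5 microglia genes passed the filter, and their sums were 0 to 8.228 and 0 to 0.3858 CPM in cluster 1 against 0 to 11.32 and 0 to 4.492 CPM in the other PVH cells. Oligodendrocyte genes summed to 3.748 to 35.46 against 18.59 to 140.2 CPM, and endothelial and ependymal genes to 0 to 6.06 against 0.2621 to 3.467 CPM. *Olig2*, *Ctss* and *Flt1* had no UMI in cluster 1. *Agrp* and *Pomc* together gave 3.748 to 62.02 CPM in cluster 1 and 5.454 to 53.05 CPM elsewhere.

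**Figure D4:**
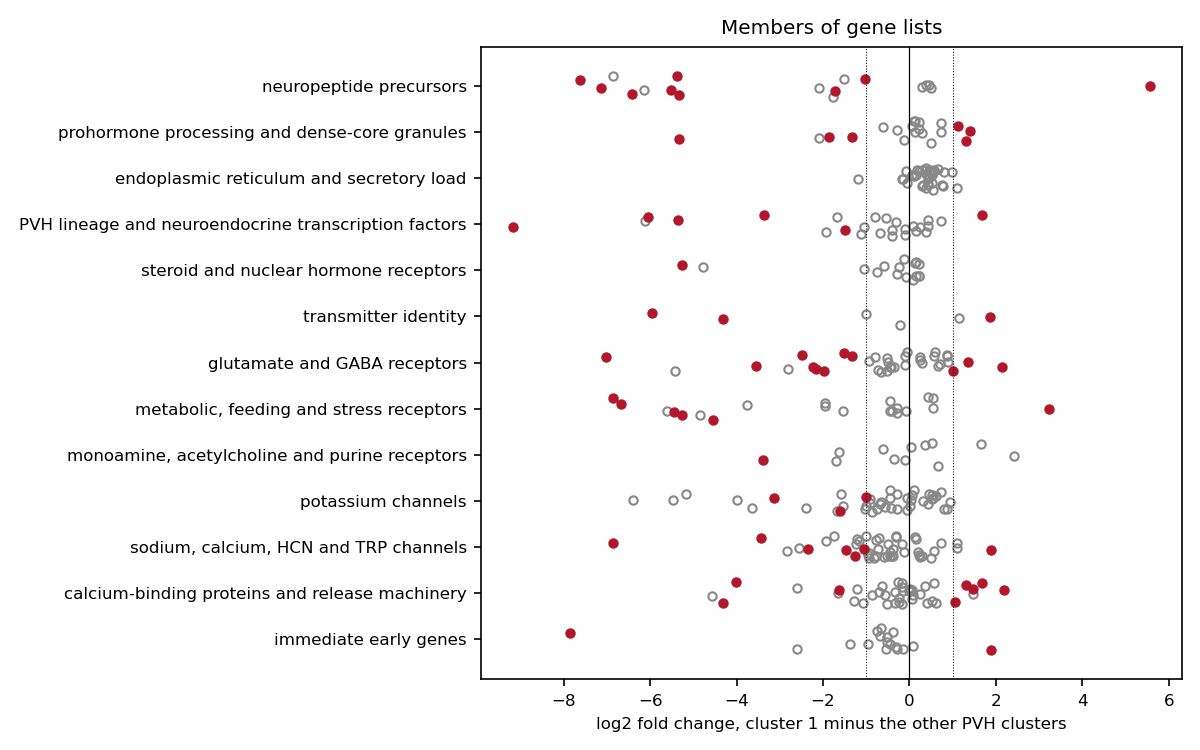
Log2 fold change of cluster 1 minus the other PVH clusters (x axis) for the tested members of 13 gene lists (rows, scattered vertically for clarity); filled red points were called by size and direction in all plates, open points were not, and dotted lines mark 1 and -1. The endoplasmic reticulum list has no filled point, and the peptide receptor list has *Rxfp3* alone on the right.

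Against cluster 2, the 53 cells with *Avp* as their main peptide, cluster 1 could be compared on 5 plates with at least 3 cells of each. These were the 4 Q plates and JM8. Of 10580 genes, 679 (6.42%) were higher in cluster 1 and 225 (2.13%) lower, with a median log2 fold change of 0.28 over all genes. *Oxt* was higher by 7.65 (SE 0.31) and *Avp* lower (-5.85, SE 1.78). *Oprk1* (4.00, SE 0.53), *Cela1* (5.73, SE 1.02), *Clic4* (6.18, SE 1.43), *Calb2*, calretinin (8.07, SE 0.57), and *Nos1* (3.91, SE 0.41) were higher on all 5 plates. Other genes higher on all 5 plates had next to no UMIs in cluster 2, and their UMIs over those plates are given instead of a fold. *Prph* had 6224 in cluster 1 and 3 in cluster 2, *Gsg1l* 2235 and 1, *Grin2a* 2823 and 1, and *Prlr*, the prolactin receptor, 1329 and 1. *Rspo3*, a relative of *Rspo4*, had 1840 UMIs in cluster 1 and 0 in cluster 2, at least 199-fold higher against a floor of 3 counts over the group, and *Cckar*, a cholecystokinin receptor, had 1942 and 0, at least 210-fold higher. *Trac* had a log2 fold change of 5.91 (SE 1.64) but was not higher on every plate. *Pcsk1* (0.14, SE 0.28) and *Calb1* (0.78, SE 0.22) were not called, whereas *Pam* (1.57, SE 0.18) was higher and *Pcsk2* (-2.14, SE 0.30), *Scg2* (-3.25, SE 0.37), *Chga* (-1.20, SE 0.35) and *Pdyn* (-1.96, SE 0.25) were lower.

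Cluster 12, which had the next highest mean of *Oxt* (12960 CPM), had 35 cells on the AL and JM plates, and 6 plates entered the comparison. Of 7985 genes, 384 (4.81%) were higher in cluster 1 and 215 (2.69%) lower, with a median of 0.17 over all genes. *Oxt* was higher in cluster 1 (2.37, SE 0.24). Of the 4 genes listed to separate magnocellular from parvocellular oxytocin neurons, *Calb1* (4.64, SE 0.70) and *Kcnmb4*, a subunit of the large-conductance potassium channel (1.95, SE 0.52), were higher, and *Reln* (-7.33, SE 0.62) and *Cnr1*, the cannabinoid receptor (-2.90, SE 0.92), were lower. The same 4 genes against all other PVH cells gave 1 higher (*Calb1*) and 1 lower (*Reln*), with *Kcnmb4* at 0.46 (SE 0.15) and *Cnr1* at -1.54 (SE 0.60), both uncalled.

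*Oprk1* did not separate the oxytocin clusters on every plate (1.12, SE 0.35). *Rxfp3* (4.97, SE 0.71), *Th* (4.59, SE 0.52) and *Foxp1* (3.95, SE 0.60) were higher in cluster 1 than in cluster 12 on all 6 plates. So were 4 genes with no UMI in cluster 12 on those plates, for which the fold is a lower bound against 3 counts over the group: *Cela1* (971 UMIs in cluster 1, at least 85.2-fold higher), *Snx31* (462, at least 40.5-fold higher), the transcription factor *Fezf2* (332, at least 29.1-fold higher) and *Clic4* (318, at least 27.9-fold higher). *Casp1* had 381 UMIs in cluster 1 and 1 in cluster 12. *Penk* (-7.34, SE 0.78) and *Cacna1g*, a T-type calcium channel (-2.83, SE 0.59), were lower. Of 33 endoplasmic reticulum genes tested against cluster 12, 10 (30.3%, beside 4.81% of all genes) were higher and 0 lower. Against cluster 2, 0 of 35 were higher and 1 lower. The cluster 12 plates were AL and JM plates, and those of cluster 2 were mostly Q plates. This list differed between those batches within cluster 1 (below), so cluster and batch cannot be told apart between these comparisons. Of 19 processing genes tested against cluster 12, 4 (21.1%) were higher and 3 (15.8%, beside 2.69% of all genes) lower. Genes higher than in cluster 12 that were not called against the PVH at large included *P4hb*, a protein disulfide isomerase (1.78, SE 0.21), *Sdf2l1* (1.81, SE 0.38), *Caprin2* (2.19, SE 0.38) and *Scg3* (1.57, SE 0.24). *Pcsk1* (2.13, SE 0.42) and *Pam* (1.72, SE 0.17) were higher in this comparison as well. *Pcp4* (0.05, SE 0.15) and *S100a10* (0.63, SE 0.27), both higher against the PVH at large, were not called against cluster 12.

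The wells held ERCC spike-ins, artificial RNAs against which the RNA of a cell can be scaled. Their amount per well is not given in the sources used here, and the ratio of gene to spike-in UMIs reads as RNA per cell only if it was equal in all wells. The plate median of this ratio was higher in cluster 1 than in the other PVH cells on 10 of 10 plates. It ran from 8.007 (JM8) to 22.39 (JM5) in cluster 1 and from 4.811 to 18.13 in the other cells, with means of 15.5 ± 4.63 and 10.4 ± 5.21. The log2 difference was 0.68 ± 0.36 (SD, n = 10 plates), a 1.6-fold higher ratio. Gene UMIs alone gave 0.65 ± 0.41, higher on 10 of 10 plates. Both sum over the genes that formed the clusters and are a description. Spike-in UMIs, which did not form them, gave -0.07 ± 0.26 (exact two-sided p = 0.412 from swapping the sides within plates, adjusted p = 0.412 over 5 tests).

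Without the UMIs of *Oxt* and *Avp* the difference of the ratio was 0.59. Against cluster 2 it was 0.70 ± 0.20, higher on 5 of 5 plates. Against cluster 12 it was 0.30 ± 0.32, higher on 4 of 6 plates. Relative to the median PVH cell of a plate, cluster 1 was the first of the 12 clusters in order, at 0.47 ± 0.28 on the log2 scale, and cluster 12 the next at 0.06 ± 0.20, which lay within the spread of cluster 4 (0.05 ± 0.32). The difference from the other PVH cells was larger on the 4 Q plates (1.01 ± 0.17) than on the 6 AL and JM plates (0.45 ± 0.27), by 0.56. This is a description, because the clusters among the other PVH cells differed between the batches. Cell size and capture efficiency were not measured.

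**Figure D5:**
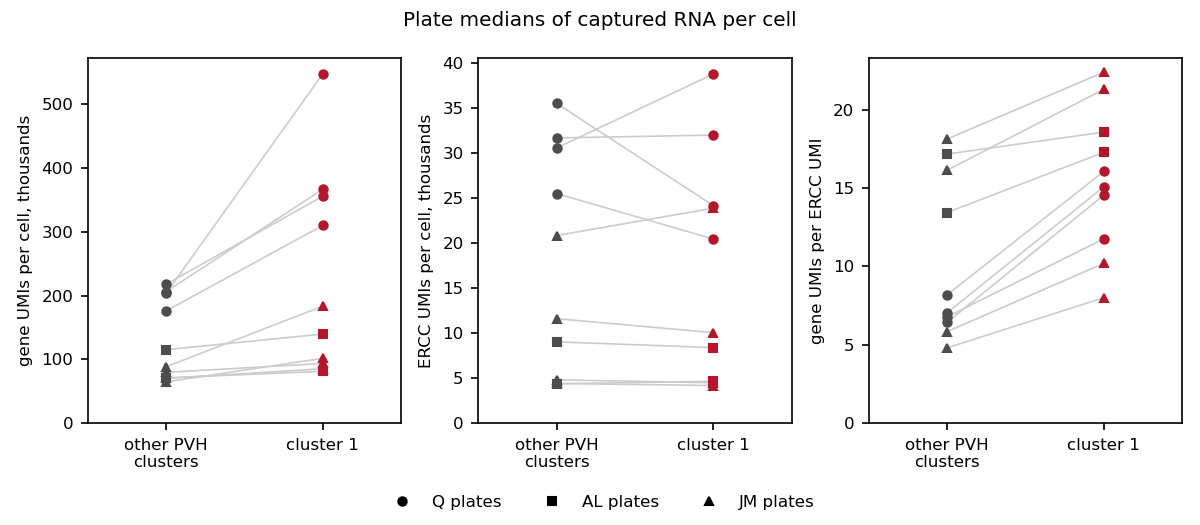
Plate medians per cell of gene UMIs, ERCC spike-in UMIs (both in units of 1000) and gene UMIs per spike-in UMI in the other PVH clusters (grey) and cluster 1 (red), joined within each of the 10 plates, with the batch given by marker shape. Gene UMIs and the ratio are higher in cluster 1 on every plate, while the spike-in lines go both ways.

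Within cluster 1 the batches of plates differed in many genes. The 4 Q plates were tested against the 6 AL and JM plates with edgeR's quasi-likelihood test, and 1316 of 11885 genes (11.1%) passed an adjusted p of 0.05, with 780 higher and 536 lower on the Q plates. Because the batches differ in depth and their animals are not named in the sources used here, technical and biological differences cannot be told apart. *Oxt* was at 78355 ± 12079 CPM on the Q plates and 59362 ± 16682 on the others (0.62, SE 0.18, edgeR adjusted p = 0.0363), a call that was lost on leaving out Q5, Q6, Q8, JM6, JM7 or JM8, with an adjusted p of up to 0.126. *Oprk1* and *Fzd7* were not called. None of the 3 genes tested of the magnocellular list was called.

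Of 35 endoplasmic reticulum genes 12 (34.3%, beside 11.1% of all genes) were called, 7 higher and 5 lower on the Q plates, among them *P4hb* at 155.4 ± 54.0 against 617 ± 58.1 CPM (-1.77, SE 0.20, edgeR adjusted p = 2.83e-05), *Xbp1* at 147.2 ± 61.6 against 470.7 ± 74.1 CPM (-1.47, SE 0.22, edgeR adjusted p = 0.000191) and *Sec61b*, a subunit of the translocation channel, at 611.6 ± 88.0 against 222.1 ± 48.5 CPM (1.67, SE 0.18, edgeR adjusted p = 2.52e-05). Of 16 immediate early genes 4 (25%) were called, all higher on the Q plates, namely *Fos*, at 465.7 ± 198.1 against 148.7 ± 76.5 CPM (1.86, SE 0.38, edgeR adjusted p = 0.00311), *Fosl2*, *Dusp1* and *Btg2*. Leaving out Q7 ended the call of *Dusp1*, and leaving out Q5, Q6 or JM7 that of *Btg2*. *Rxfp3* was lower on the Q plates (-1.29, SE 0.20, edgeR adjusted p = 0.000279), as were *Otp* (-1.47, SE 0.26, edgeR adjusted p = 0.000884) and *Snap25*, a fusion protein of the synapse (-1.05, SE 0.19, edgeR adjusted p = 0.00103). *Resp18* (1.25, SE 0.11, edgeR adjusted p = 3.14e-06), a granule protein, and *Pcp4* (1.73, SE 0.25, edgeR adjusted p = 0.000145) were higher.

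The largest batch differences were *Capn15*, *Abhd11os*, *Spag7*, *Crip1* and *Mt3*, higher on the Q plates by 2.97 to 3.40, and *Gm10800*, *Gm26384*, *Sparc*, *Gm8355* and *Apoe*, lower there. *Spag7* was at 169.8 ± 16.5 against 20.69 ± 7.60 CPM. *Apoe*, a lipid carrier made mainly by glia, was at 1.53 ± 2.56 against 37.06 ± 25.1 CPM (-4.26, SE 1.11, edgeR adjusted p = 0.0159), and its call was lost without Q7 (adjusted p = 0.0501). Their part in the other batch differences was not tested.

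Correlations with *Oxt* from cell to cell are given for the 5 genes at each end of the ranking. Over 206 cells on 8 plates, the mean within-plate Spearman correlation with *Oxt* was highest for *Pcp4* at 0.41, with plates from -0.16 to 0.79. It was 0.33 for *Syngr1*, 0.29 for *Asphd1* and 0.27 for *Serf2* and *Rpl12*. The lowest values were -0.32 for *Os9*, -0.30 for *Ppp2r5c*, -0.29 for *Mapre2* and *Caly*, and -0.28 for *Rars2*, and the median of 5082 genes was -0.01. Cells of a plate share their library and differ in depth, and the values are given as a description.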

How the data were processed

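Cells were picked by hand, and cDNA was made with barcoded primers and amplified as a pool per plate (Smart-SCRB). The authors deposited raw UMI counts per gene (48397 genes) and per ERCC spike-in (92) for 960 wells, and a table that gives the plate, batch and cluster of each retained cell. The submitters' processing notes name Trimmomatic 0.36, STAR 2.5.3a and genome build GRCm38.p5. Every column used was mapped to its plate. A list of well barcodes was not used. Clusters 5, 6 and 11, set aside by the study, were left out.

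UMIs were summed per plate and side (at least 3 cells) and fitted with edgeR 4.0.16 under R 4.3.3 (TMM, filterByExpr, robust quasi-likelihood), with the plate as a block for clusters. The unit is counts, and CPM were computed from the sums. DESeq2 1.42.0 was an alternative. Scripts used Python 3.11.15, numpy 2.4.6, pandas 2.3.3, scipy 1.17.1 and matplotlib 3.10.9. The count fits and the exact test were tested on simulated data. Adjustment was by Benjamini-Hochberg. Doublets were not sought, since cells were picked singly.

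The genes named are members of the gene lists, the 15 largest calls in each direction with at least 20 CPM on the higher side, genes on in over 40% and off in under 5% of cells, the 5 genes most and the 5 least like *Oxt* (detected in at least 50% of cells, plates with at least 10 cells), and the 5 largest batch calls in each direction. Members and lists were chosen with earlier results of these data known. Some list members are counted but not reported by name here.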

Additional observations from a re-analysis of the deposited data

Results flagged for a closer look

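Several values stood apart from the other plates by Dixon's test at the 95% level, which chance alone meets in about 1 of 20 groups; 57 quantities were tested and 7 met it. In cluster 1 these were the highest plates of *Snx31* (68.37 CPM), *Fam122b* (58.71 CPM), *Fam19a1* (233.5 CPM) and *Avp* (15085 CPM). The *Avp* value is that of plate Q8, which held 2 of the cells led by *Avp*. In the other PVH cells they were the highest plates of *Clic4* (6.738 CPM), *Rxfp3* (62.24 CPM) and *Tac1* (496.4 CPM).

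The difference between cluster 1 and the other PVH cells varied with the batch of plates. For the ratio of gene to spike-in UMIs it was larger by 0.56 (log2) on the Q plates than on the AL and JM plates. That value is a description, since the clusters among the other PVH cells differed between the batches. For *Oxt*, which marks cluster 1, the values are a description too. On the scale of log2(CPM + 1), it was 7.19 ± 1.01 on the 4 Q plates and 4.32 ± 1.24 on the 6 AL and JM plates, a difference of 2.87. The other PVH cells had 605.6 ± 334.1 CPM of *Oxt* on the Q plates and 3440 ± 2009 CPM on the others, where all 35 cells of cluster 12 lay. Without cluster 12 among the other cells the difference was 1.22, an alternative chosen after seeing the data. The corresponding values were 0.74 for *Oprk1* and -0.52 for *Fzd7*.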

How the results depend on the processing

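Counts of genes called differed with the plates used, and single batches differ in depth as well as in number of plates. On the Q plates alone 508 genes were higher and 992 lower in cluster 1, of which 125 and 290 were shared with the 134 and 330 of all plates, while the AL and JM plates by themselves gave 192 higher and 555 lower. Leaving out a plate gave 138 to 167 higher and 330 to 388 lower. Other normalization, no filter, DESeq2, no replicate block (135 higher and 314 lower), sums of at least 5 cells, equal weight for each other cluster (115 and 302, of which 99 and 246 were among the 134 and 330) and leaving out cells rich in *Avp* (132 and 336, chosen after seeing the data) stayed within 1.5 times. No paired analysis between groups was possible because all plates belong to 1 group; the block is the plate. For 31 named genes, the markers and the 15 largest calls in each direction, none of 611 alternative log2 fold changes changed sign. These genes were picked by size and direction, so a change of sign was unlikely from the outset. Of the 611 values, 38 moved by more than the spread between plates. Of 88 called genes 23, of which 22 were lower, moved by over 1.5 times when a single plate was left out. Among 17 alternatives, without equal weight and single batches, 6 of the 88 lost their call under at least 1, *Calb1*, *Pdyn*, *Gabra5*, *Kcnk2*, *Trpm2* and *Trpm4*, the last only without the *Avp*-rich cells, where the fold stayed at 1.77 but the direction failed on a plate. *Fzd7* was tested in 11 of the 17, and *Wnt4* and *Ddc* in 16. The batch count within cluster 1 ran from 903 to 1292 on leaving out a plate. The log2 difference of the ratio ran from 0.62 to 0.74 against the other PVH cells (gene UMIs 0.56 to 0.70, spike-ins -0.12 to -0.02), 0.63 to 0.75 against cluster 2 and 0.21 to 0.37 against cluster 12. Requiring 3 UMIs lowered the share of cells from 14.9% to 8.6% for *Fzd7* and from 40.3% to 28.1% for *Clic4*.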
